A study of Homo sapiens with 6 samples.

Results

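Transcripts of 43 genes that build the tight junctions, adherens junctions and desmosomes of epithelial cells, or that run the epithelial programme, were followed in A549 cells, an established human line from a lung adenocarcinoma. The genes were taken from a named list by exact match of their symbol to the platform's probe-to-gene table, and where a gene had several probe sets the brightest, by its mean signal on the 6 arrays, was used. Of the 43, 42 were measured among 18244 genes in all, and F11R was not analysed here. The cells had received lentivirus with a short hairpin RNA (shRNA), an RNA that directs the small RNA machinery to a matching transcript, and their total RNA was hybridized to 1-colour Affymetrix arrays. The group labelled shTIGD1 carried a hairpin against TIGD1, a gene derived from a transposase, and the group labelled shControl carried a control hairpin, with 3 arrays each. Only 1 hairpin sequence was used against TIGD1, all cells were A549, and no time after infection is given in the sources used here. Array numbers are labelled, separate cultures are not, so every p-value reflects variation among these samples that may be technical only. The hairpin sequences of 19 bases each are shown because they are what sets the groups apart.
shTIGD1: ctgctaacacaacatccat
shControl: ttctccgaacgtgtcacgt

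Epithelial cells are held together by 3 kinds of junction. At the tight junction, claudins and the MARVEL proteins occludin and tricellulin seal or open the space between cells, and plaque proteins such as ZO-1 (TJP1) and cingulin (CGN) tie them to actin. The adherens junction joins cells through cadherins with their catenins and through nectins with afadin (AFDN), and the desmosome joins keratin filaments of neighbouring cells through desmogleins, desmocollins, plakophilins and desmoplakin. In carcinoma cells this set is known to be repressed by factors such as ZEB1 and the SNAI family during the epithelial to mesenchymal transition.

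The signals below are log2 values as deposited. TIGD1 itself did not pass the test, with 6.88, 6.84 and 6.86 on the arrays labelled shTIGD1 and 6.96, 6.93 and 6.85 on the arrays labelled shControl (log2 difference -0.06, 95% interval -0.16 to 0.04, limma adjusted p = 0.389, exact two-sided permutation p = 0.3, where 0.1 is the smallest that 3 against 3 can give). Directions are therefore those of the labels. The epithelial markers KRT7, KRT8 and KRT18 had means between 13.2 and 14.2 in both groups, while the alveolar markers SFTPC and NKX2-1 were low, at 6.13 and 5.85 in shTIGD1 and 6.22 and 5.85 in shControl. A mean under 5 is called near background here, and it was found for the immune markers PTPRC, CD3E and MS4A1, although CD14 and CD68 read 8.21 and 7.40 in shTIGD1 and 8.21 and 7.36 in shControl. The summed linear signal of 5 endothelial markers lay between 140.4 and 153.0 in shTIGD1 and between 153.2 and 158.2 in shControl, with 0 of the 5 past the test. On the array's own controls the 3′ minus 5′ signal of ACTB lay between 0.312 and 0.359 in shTIGD1 and between 0.371 and 0.403 in shControl, and that of GAPDH between -0.147 and -0.115 in shTIGD1 and between -0.079 and -0.045 in shControl. These controls of RNA quality thus separated the groups, and the part that they or the endothelial markers have in the results was not tested. Levelling the arrays on hybridization controls would add 0.21, and on poly-A controls 0.33, to every log2 difference below.

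Among the junction genes a small set rose, while 26 of the 42 did not pass the test. The largest changes were rises of PLEKHA7, an adherens junction adaptor, of the MARVEL genes MARVELD2 and OCLN, of the claudin CLDN2 and of the desmosomal plakophilin PKP2, by 0.46 to 1.04 on the log2 scale. In bulk RNA, more cells with a transcript and more of it per cell cannot be told apart. In all, 10 of 42 members (23.8%) passed limma at an adjusted p of 0.05 as higher in shTIGD1, where 9.81% of all genes did. As lower, 6 members (14.3%) passed, where 14.0% of all genes did, so that the share of falls was near the background. The members were chosen with earlier results of these data known, so the larger share of rises only describes the list. With a log2 change of at least 0.3, 6 members were higher (4.02% of all genes) and 1 was lower (3.58% of all genes). The median log2 difference was -0.0041 over the members and -0.0358 over all genes, and 21 members had a positive and 21 a negative difference. The 3 values of a group lay wholly above those of the other for 13 members (16.9% of all genes) and wholly below for 14 (25.5% of all genes). Leaving out any 1 array left 7 to 9 members higher and 1 to 3 lower. In a fit over genes with a mean signal of at least 5, 11 of 36 members were higher and 7 lower. Of all genes in that fit, 16.9% were higher and 23.9% lower. With hybridization control scaling, 27 members passed as higher and 0 as lower, where 47.9% and 1.98% of all genes did. With poly-A control scaling, 34 passed as higher and 0 as lower, where 76.5% and 0.652% of all genes did. Both scalings add a positive constant, so they could not end a rise. A fall smaller than the constant must turn in sign, so such a turn is no test of that gene. None of the 6 falls passed as lower under either scaling.

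**Figure D1:**
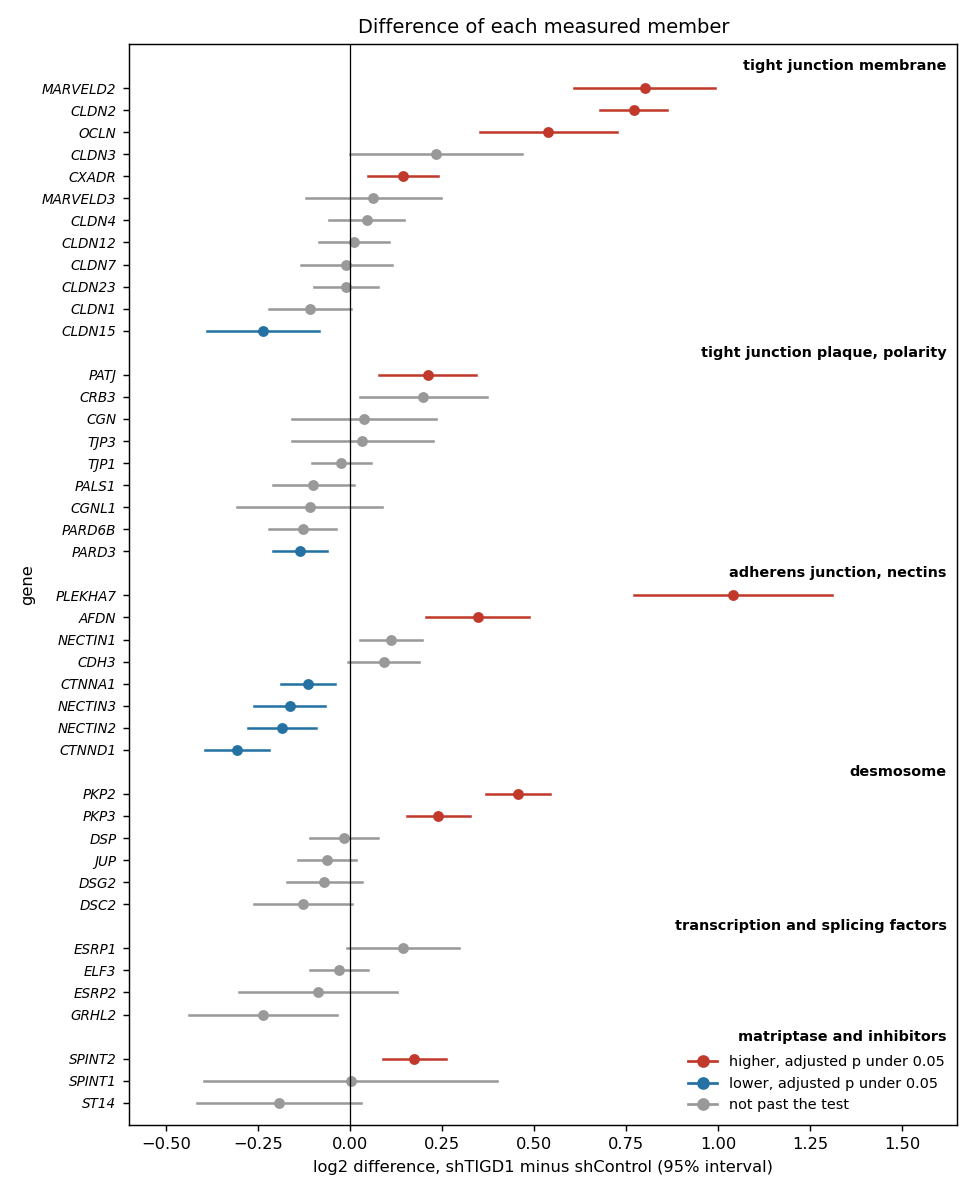
Log2 difference (shTIGD1 minus shControl) of each of the 42 measured members with its 95% interval from limma, n = 3 arrays per group, sorted within role. The rises of PLEKHA7, MARVELD2, CLDN2, OCLN and PKP2 lie to the right, and all 6 falls are smaller than 0.33, the shift of the poly-A control scaling, under which none of them passes as lower.

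In the tight junction membrane 4 of the 12 measured members rose and 1 fell, where 9.81% and 14.0% of all genes did. The fall turned in sign under poly-A control scaling, and the MARVEL genes MARVELD2 and OCLN were among those that rose. MARVELD2 encodes tricellulin, which seals the corners where 3 cells meet. It read 7.005, 6.808 and 7.027 on the arrays labelled shTIGD1 and 6.037, 6.258 and 6.145 on the arrays labelled shControl. Every shTIGD1 value lay above every shControl value, the means were 6.95 ± 0.12 in shTIGD1 and 6.15 ± 0.11 in shControl (SD, n = 3 each), and the rise was 1.74-fold (log2 difference 0.80, SE 0.080, limma adjusted p = 0.00161). All 3 of its probe sets rose, by 0.24 to 0.80. The names of the dimmer ones end in _x_at, the platform's mark for probes that can match other sequences. The dimmest, which rose by 0.24, was near background (3.90 in shTIGD1 and 3.65 in shControl). OCLN, the gene of occludin, read 6.11, 6.04 and 6.28 in shTIGD1 and 5.55, 5.71 and 5.55 in shControl. Its groups were also separate, and the rise was 1.45-fold (log2 difference 0.54, SE 0.078, limma adjusted p = 0.00505). OCLN has 1 probe set on the array, and whether it also detects OCLNP1, a transcribed pseudogene on the same chromosome in RefSeq, was not analysed here. The remaining MARVEL gene, MARVELD3, was near background in both groups (4.08 ± 0.14 in shTIGD1 and 4.015 ± 0.058 in shControl, SD, n = 3 each) and did not pass.

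MARVELD2 and OCLN are direct neighbours on chromosome 5, with no other protein-coding gene between them in RefSeq. Because these neighbours rose together, the window from 250 bases before to 50 bases after a start of each gene is shown (RefSeq, GRCh38.p14, plus strand), at chr5:69414866-69415165 for MARVELD2 and chr5:69492540-69492839 for OCLN. Capitals mark CAGGTG or its reverse complement CACCTG, an E-box bound by ZEB and SNAI factors, and ACCGGT, the core of the grainyhead consensus, which reads the same on both strands. The motifs do not overlap each other in these windows.
MARVELD2: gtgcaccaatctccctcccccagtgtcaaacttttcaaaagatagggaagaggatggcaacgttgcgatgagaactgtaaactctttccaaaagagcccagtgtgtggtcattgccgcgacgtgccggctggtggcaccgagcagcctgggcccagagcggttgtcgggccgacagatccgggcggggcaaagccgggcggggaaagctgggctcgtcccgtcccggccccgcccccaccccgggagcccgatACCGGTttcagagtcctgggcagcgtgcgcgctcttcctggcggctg
OCLN: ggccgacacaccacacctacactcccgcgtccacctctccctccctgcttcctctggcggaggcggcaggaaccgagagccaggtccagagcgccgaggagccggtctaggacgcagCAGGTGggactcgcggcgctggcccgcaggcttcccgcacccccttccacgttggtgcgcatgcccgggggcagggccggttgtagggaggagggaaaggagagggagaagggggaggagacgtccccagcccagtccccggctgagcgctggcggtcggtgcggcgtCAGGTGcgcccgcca

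The OCLN window holds the E-box 2 times, the first of them 133 bases before the start, and the MARVELD2 window holds ACCGGT 1 time, just inside the transcript. A second RefSeq start of OCLN has a window with 1 E-box, 33 bases before the start. The OCLN window printed was chosen because it holds more E-boxes. RefSeq windows were found for 26 of the 43 listed genes, 39 windows in all. The E-box was present in 15 of these 39 (38.5%) and in 20.6% of 35116 windows of all genes. Counted by gene, 3 of 5 members that rose, 0 of 4 that fell and 11 of 17 that did not pass had it in at least 1 window, against 53.8% of the 26 members and 24.1% of 27305 genes with a window. ACCGGT was present in 1 of the 39 windows (2.56%), that of MARVELD2, and in 1.83% of all windows.

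The claudins, which form the strands of the tight junction, differed among themselves. CLDN2, a claudin that forms channels for cations and water, read 9.87, 9.82 and 9.91 in shTIGD1 and 9.13, 9.09 and 9.08 in shControl. The groups were far apart for their spread, with means of 9.87 ± 0.04 in shTIGD1 and 9.10 ± 0.03 in shControl (SD, n = 3 each), and the rise was 1.71-fold (log2 difference 0.77, SE 0.038, limma adjusted p = 0.000233). Its other probe set rose by 0.75. CLDN15, which also forms cation channels, fell by 0.24 as deposited (SE 0.063, adjusted p = 0.0393) with both probe sets lower, but its difference was 0.10 under poly-A control scaling and it passed in only 1 of the 6 fits that left out an array, the fit without shControl replicate 2. The barrier claudins CLDN1 (-0.11, interval -0.22 to 0.0029), CLDN3 (0.23, interval 0.0004 to 0.47) and CLDN7 (-0.01, interval -0.13 to 0.11) did not pass, nor did CLDN12 (0.01, while its dimmer probe set rose by 0.29) and CLDN23 (-0.01).

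CLDN4, another barrier claudin, did not pass with its brightest probe set, whose shTIGD1 values of 7.13, 7.16 and 7.11 overlapped the shControl values of 7.12, 7.13 and 7.02. Its 2 dimmer probe sets rose by 0.36 and 0.60 in the fit over all 49293 probe sets (limma adjusted p = 0.0179 and 0.00635). CLDN3 and CLDN4 are direct neighbours on chromosome 7. CXADR, a virus receptor that sits beside the tight junction, rose by 0.14 with its brightest probe set (SE 0.040, adjusted p = 0.0427), a call that ended whichever array was left out (highest adjusted p = 0.113). Its 3 dimmer probe sets rose by 0.29, 0.67 and 0.93. The names of these 3 end in _x_at, the platform's mark for probes that can match other sequences, and RefSeq holds the pseudogenes CXADRP1, CXADRP2 and CXADRP3, so the size of the CXADR rise is uncertain.

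**Figure D2:**
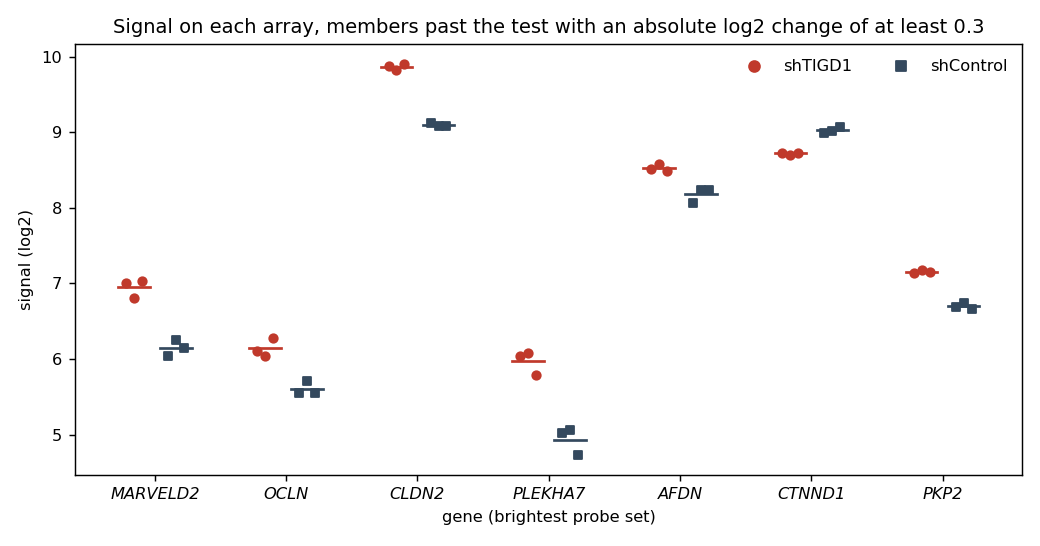
Log2 signal on each array (points) with the group mean (line) for the 7 members past the test with an absolute log2 change of at least 0.3, n = 3 arrays per group. The shTIGD1 values lie above the shControl values for 6 of them and below for CTNND1, where another probe set goes the opposite way and poly-A control scaling turns the sign.

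Of the 9 plaque and polarity genes inside the tight junction 1 rose and 1 fell (11.1% each). These shares were near the 9.81% and 14.0% of all genes, and the fall turned in sign under both control scalings. The scaffold gene TJP1 read 11.45 on every shTIGD1 array and 11.51, 11.46 and 11.45 on the shControl arrays, a log2 difference of -0.02 (interval -0.10 to 0.06). The scaffold TJP3 (0.03) and cingulin (CGN, 0.04) did not pass, and cingulin-like CGNL1 was near background in both groups. In the Crumbs complex, which marks the apical side, PATJ rose by 0.21 (SE 0.054, adjusted p = 0.0353). The PATJ call rested on 1 of 7 probe sets and passed in only 1 of the 6 fits without an array, the one without shControl replicate 2. The second brightest PATJ probe set differed by -0.23 and did not pass. CRB3, the membrane protein of that complex (0.20, adjusted p = 0.0936), and the scaffold PALS1 (-0.10, adjusted p = 0.173) did not pass.

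In the PAR complex, which sets cell polarity, PARD3 read 10.40, 10.40 and 10.42 in shTIGD1 and 10.55, 10.54 and 10.54 in shControl. It fell by 0.14 as deposited (SE 0.031, limma adjusted p = 0.0230, 3 of 4 probe sets lower), but the sign turned under both control scalings (0.07 and 0.20). The PARD3 call also ended whichever array was left out (highest adjusted p = 0.0797). PARD6B differed by -0.13 and did not pass (adjusted p = 0.0540).

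At the adherens junction 2 of 8 members rose and 4 fell with their brightest probe set as deposited, where 9.81% and 14.0% of all genes did. The falls turned in sign under poly-A control scaling. All 8 had groups that did not overlap, with shTIGD1 above for 4 (16.9% of all genes) and below for 4 (25.5% of all genes). PLEKHA7, which links the cadherin complex to microtubule ends, read 6.05, 6.08 and 5.795 in shTIGD1 and 5.02, 5.06 and 4.73 in shControl. Its means were 5.97 ± 0.16 in shTIGD1 and 4.93 ± 0.18 in shControl (SD, n = 3 each), the largest difference of any member in this fit (log2 difference 1.04, SE 0.112, limma adjusted p = 0.00202). The rise was 2.06-fold (interval 0.77 to 1.31 on the log2 scale). The shControl mean was near background, and its effect on the size of the rise was not tested. A dimmer PLEKHA7 probe set, near background in both groups, differed by -0.06 and did not pass. AFDN, the nectin adaptor afadin, read 8.52, 8.58 and 8.48 in shTIGD1 and 8.07, 8.23 and 8.24 in shControl with its brightest probe set (log2 difference 0.35, SE 0.058, limma adjusted p = 0.00824). These groups did not overlap. Of the 7 AFDN probe sets, the 2 brightest rose and 1 near background fell (-0.29), and the mean of all 7 differed by -0.02, so the AFDN rise rests on its bright probe sets.

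CTNND1 encodes p120 catenin, which holds cadherins at the membrane, and its transcript is known to be spliced differently in epithelial and mesenchymal cells. Its brightest probe set read 8.73, 8.70 and 8.73 in shTIGD1 and 8.99, 9.02 and 9.07 in shControl, a fall of 0.31 on the log2 scale (SE 0.036, limma adjusted p = 0.00269). The second brightest read 8.84, 8.84 and 8.78 in shTIGD1 and 8.55, 8.53 and 8.62 in shControl, a rise of 0.26 (SE 0.043, adjusted p = 0.00815 over all probe sets). The groups were separate in both probe sets and in opposite order, and the mean of all 5 probe sets differed by 0.0016, so no direction is given for the gene. Which transcript regions the probe sets cover was not analysed here.

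Of the 3 nectins, adhesion receptors of the immunoglobulin family, 2 fell slightly as deposited. Their falls were smaller than the constants added by the control scalings, so they turned in sign under both. NECTIN2 fell by 0.18 (SE 0.039, adjusted p = 0.0181) and NECTIN3 by 0.16 (SE 0.040, adjusted p = 0.0306). In the fit over all probe sets the dimmer one of each did not pass. They differed by -0.15 for NECTIN2 (limma adjusted p = 0.0506) and -0.01 for NECTIN3 (limma adjusted p = 0.822). The NECTIN2 call ended in 4 of the 6 fits without an array (all but those without shTIGD1 replicate 1 and shControl replicate 2), and the NECTIN3 call in 5 (all but that without shControl replicate 3). NECTIN1 differed by 0.11 and did not pass (adjusted p = 0.0668). CTNNA1, the actin-binding alpha-catenin, fell by 0.11 as deposited (SE 0.031, adjusted p = 0.0415), but 0.09 was found under hybridization and 0.22 under poly-A control scaling, and the call ended whichever array was left out. In the fit over all probe sets 0 of the 7 for CTNNA1 passed (limma adjusted p = 0.0618 for the brightest). CDH3, the gene of P-cadherin, differed by 0.09 and did not pass (adjusted p = 0.151), while CDH1, the gene of E-cadherin and the direct neighbour of CDH3 on chromosome 16, rose by 0.66.

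In the desmosome the plakophilins PKP2 and PKP3 rose, and the other 4 of 6 members did not pass. Of all genes, 9.81% were higher and 14.0% lower. Plakophilins are armadillo proteins that cluster desmosomal cadherins and link them to desmoplakin. PKP2 read 7.14, 7.18 and 7.15 in shTIGD1 and 6.68, 6.75 and 6.67 in shControl. The groups were separate and the rise was 1.37-fold (log2 difference 0.46, SE 0.036, limma adjusted p = 0.000824), with 0.48 for its other probe set. PKP3 rose by 0.24 (8.65 ± 0.02 in shTIGD1 and 8.41 ± 0.04 in shControl, SD, n = 3 each, adjusted p = 0.00565), while its dimmer probe set differed by 0.01. Outside the 43 genes, PKP1 (-0.03, near background) and PKP4 (0.02, adjusted p = 0.758) did not pass and were named after their values were seen. The cadherins DSG2 (-0.07, interval -0.17 to 0.03, although 1 dimmer probe set fell by 0.18) and DSC2 (-0.13, interval -0.26 to 0.0048) did not pass, nor did desmoplakin (DSP, -0.02, interval -0.11 to 0.08) and plakoglobin (JUP, -0.06, interval -0.14 to 0.02).

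**Figure D3:**
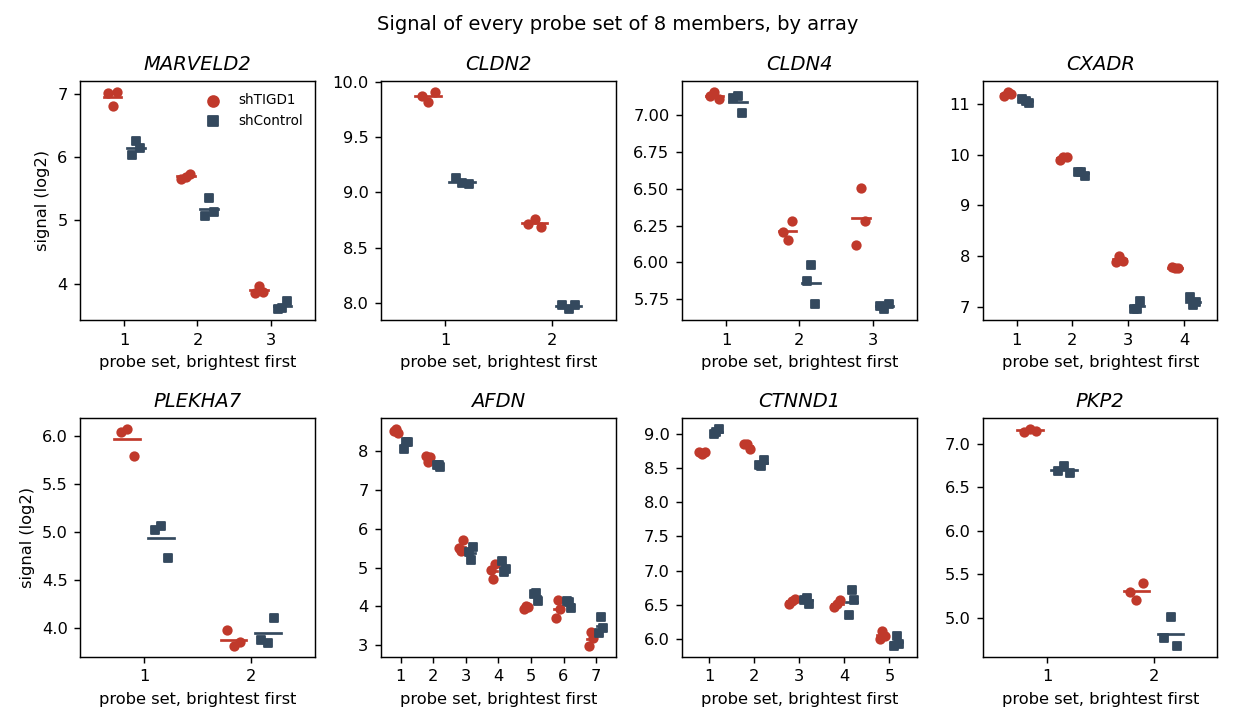
Log2 signal of every probe set of 8 members on each array (points) with group means (lines), brightest probe set first, n = 3 arrays per group. All probe sets of MARVELD2, CLDN2 and PKP2 are higher in shTIGD1, the 2 dimmer CLDN4 probe sets are higher while the brightest overlaps, and the 2 brightest CTNND1 probe sets lie in opposite order.

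Over the 35 members with several probe sets, calls in opposite directions were found for CTNND1 and AFDN. Of the 124 probe sets of all members, 22 were higher and 10 lower, against 11.5% and 10.6% of all 49293 probe sets.

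None of the 4 members that regulate the epithelial programme passed. The splicing factors ESRP1 and ESRP2 and the grainyhead factor GRHL2 were near background in both groups, with means of 4.45, 4.68 and 4.08 in shTIGD1 and 4.31, 4.76 and 4.32 in shControl (SD 0.036 to 0.177, n = 3 each). At that signal a change could be missed. ELF3, an ETS factor of epithelial cells, was bright and differed by -0.03 (11.89 ± 0.03 in shTIGD1 and 11.92 ± 0.01 in shControl, SD, n = 3 each, interval -0.11 to 0.05). Of the matriptase system, a protease of the epithelial surface with its inhibitors, the protease gene ST14 was near background in both groups, and the inhibitor SPINT1 did not pass (0.0021, interval -0.40 to 0.40). The other inhibitor, SPINT2, rose by 0.17 (12.85 ± 0.04 in shTIGD1 and 12.67 ± 0.007 in shControl, SD, n = 3 each, limma adjusted p = 0.0161), with both probe sets higher. The SPINT2 call ended without shTIGD1 replicate 1 and without shControl replicate 3 (highest adjusted p = 0.0534).

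Genes of the same structures outside the 43 were read from the same fit. Of 78 measured of 81 listed, 13 were higher and 8 lower, with a median of -0.01, against 9.81% and 14.0% of all genes. In the adherens junction and desmosome list 5 of 21 were higher and 1 was lower. The adhesion gene EPCAM rose by 0.87 (limma adjusted p = 0.000628), CDH1 by 0.66 (adjusted p = 0.000513) and PERP, a desmosomal membrane protein, by 0.41 (SE 0.045, adjusted p = 0.00207). The desmocollin DSC3 fell by 0.40 towards background (adjusted p = 0.0323), a call that ended without shTIGD1 replicate 1 or 3, without shControl replicate 1 or 2, and under both control scalings. CTNNB1, beta-catenin, differed by -0.04 with its brightest probe set and did not pass, while 4 of its 8 probe sets passed as higher.

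Among the other epithelial genes 6 of 21 were higher and 2 lower, where 9.81% and 14.0% of all genes were. The receptor ERBB3 rose by 0.87 (SE 0.091, limma adjusted p = 0.00188, 1 of 3 probe sets), the myosin MYO5B, which moves vesicles to the apical membrane, by 0.65, and AP1M2, an adaptor subunit of basolateral sorting, by 0.50. CDS1 and the transcription factor KLF4 rose by 0.36 each. GRHL3, a grainyhead factor, fell by 0.64 (SE 0.087, adjusted p = 0.00413), also under both control scalings (-0.43 and -0.31), and EPS8L2, an actin regulator, fell by 0.34 as deposited but did not pass under either. Of the 36 other tight junction and polarity genes, 2 were higher and 5 lower. LSR, which recruits tricellulin to corners between cells, rose by 0.35 (9.64 on average in shTIGD1 and 9.28 in shControl, adjusted p = 0.00167). The falls were in PRKCI, PRKCZ, SCRIB, AMOTL1 and AMOTL2, named after their values were seen, by 0.16 to 0.25, and none of them passed as lower under either control scaling. These 5 calls also ended in 4 to 6 of the 6 fits without an array.

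Of 12 mesenchymal genes and repressors, 0 were higher and 4 lower as deposited, with a median of -0.10. Of all genes, 9.81% were higher and 14.0% lower. SPARC fell by 0.71 (SE 0.060, limma adjusted p = 0.00103), also under both control scalings (-0.50 and -0.37). ZEB1 fell by 0.36 (SE 0.059, adjusted p = 0.00816, 6 of 7 probe sets lower), but did not pass under either scaling (-0.15 and -0.02). TWIST1 and SNAI1 fell by 0.21 and 0.14 and turned in sign under both. Their calls ended in 4 and 6 of the 6 fits without an array. SNAI2 was near background and differed by 0.31 (adjusted p = 0.114), and vimentin (VIM, -0.05), FN1 (-0.03) and CDH2 (-0.12, adjusted p = 0.0661) did not pass. A dimmer probe set of CDH2 rose by 0.145 (adjusted p = 0.0309 over all probe sets), as did the dimmest of 8 for FN1, by 0.27 (adjusted p = 0.0354). The 6 fibroblast markers had a summed linear signal of 157.3 to 167.0 in shTIGD1 and 175.2 to 192.0 in shControl. Only COL3A1 of the 6 passed (log2 difference -0.56), while the median difference was 0.03 and 4 of the 6 were positive. COL1A2, DCN and LUM were near background in both groups, and the part of the 6 markers in the results was not tested.

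**Figure D4:**
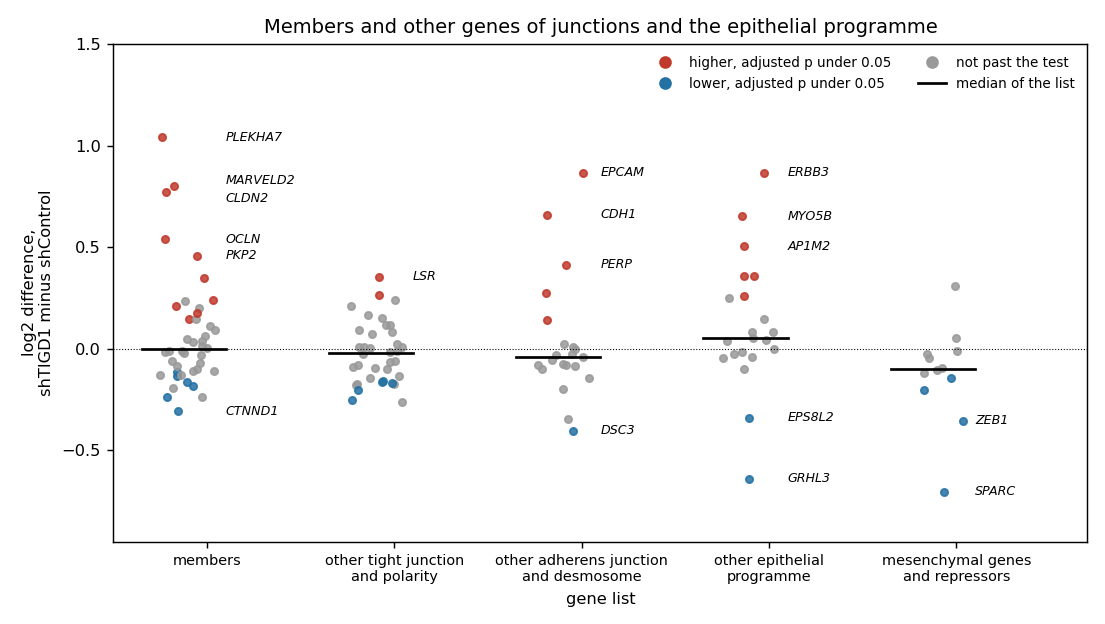
Log2 difference (shTIGD1 minus shControl, n = 3 arrays each) of every measured gene of 5 lists, with the median of each list as a line. The medians lie between -0.10 and 0.05, and the named genes stand apart from lists that are otherwise centred near 0. Among the falls labelled by name, those of SPARC and GRHL3 also pass under both control scalings.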

How the data were processed

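RNA from 6 samples was labelled and read on Affymetrix arrays of 1 colour. What the authors deposited is a log2 signal for each probe set and array. The submitters' processing notes name GCOS and RMA, with no versions given. The base of the log was inferred from the values' range. RMA makes arrays alike, so a shift common to most genes is removed. The number of arrays limits the precision.

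Of 49395 probe sets, 102 controls were left out. A total of 45278 had 1 symbol, 1333 several and 2682 none. No gene was named from a probe set with several. The test per gene was limma 3.58.1 (lmFit, then eBayes) under R 4.3.3, two-sided, with Benjamini-Hochberg adjustment over 18244 genes. Single probe sets were fitted over 49293. The code was tested on simulated data.

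Members and lists were chosen with earlier results of these data known. Values on every array are given for TIGD1, for members past 0.05 with an absolute log2 change of at least 0.3, and for members whose probe sets passed in opposite directions, and for CLDN4, TJP1 and PARD3, chosen after their values were seen, as were MARVELD2 and OCLN for the printed windows. Other genes were named with an absolute change of at least 0.3, or as CDH1, CTNNB1 and ZEB1. TWIST1, SNAI1, SNAI2, VIM, FN1, CDH2, PKP1 and PKP4 were added after their values were seen. Alternatives covered the choice of probe set, scaling, dim genes, the variance model, the replicate block and leaving out each array. At most 184 probe sets were equal on a pair of arrays. Tables were made with Python 3.11.15 and pandas 2.3.3.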

Additional observations from a re-analysis of the deposited data

How the results depend on the processing

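The equal-median, array-weight, quantile, trend and dim-gene settings left the member counts at 9 to 12 higher and 6 or 7 lower. Over all genes the shares moved too, to 16.9% higher and 23.9% lower with a mean signal of at least 5, 20.4% and 28.8% with at least 6, and 13.4% and 18.4% with the trend. None of the 10 rises changed sign in these settings, but at least 6 left 29 members, without OCLN and PLEKHA7. Leaving out each array gave 7 to 9 members higher and 1 to 3 lower, and over all genes 1177 to 1474 higher and 1564 to 1912 lower. Such fits hold fewer arrays. Of the called members, 7 of 10 higher (OCLN, MARVELD2, CLDN2, AFDN, PLEKHA7, PKP2 and PKP3) and 1 of 6 lower (CTNND1) passed in all 6. The CTNND1 call holds for its brightest probe set only, since the second brightest passed as higher. Whether arrays of the same number were handled together is not labelled. Deviations from the group means correlated at -0.032, -0.133 and -0.094 between arrays of the same number. Between arrays of unlike number they correlated at -0.024 to 0.112. These values gave no sign of pairing but cannot exclude it. With the replicate block, 7 members were higher and 1 lower, and 1098 genes higher and 1293 lower.

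The scaling mattered most. Scaling on hybridization controls gave 27 members higher and 0 lower, 8735 genes higher and 361 lower, and 40 other junction and epithelial genes past the test, against 21 as deposited. Poly-A control scaling gave 34 members higher and 0 lower, 13954 genes higher and 119 lower, and 59 such genes. These scalings add a positive constant to every difference, so no rise could be lost and any fall smaller than the constant had to turn in sign. Among the members past the test in either setting, TIGD1 and CTNNB1, log2 differences that changed sign under hybridization control scaling were 0.15 for TIGD1, 0.20 for CLDN7, 0.20 for CLDN23, 0.18 for TJP1, 0.072 for PARD3, 0.094 for CTNNA1, 0.024 for NECTIN2, 0.044 for NECTIN3, 0.14 for DSG2, 0.19 for DSP, 0.15 for JUP, 0.18 for ELF3 and 0.17 for CTNNB1. Under poly-A control scaling they were 0.28 for TIGD1, 0.22 for CLDN1, 0.32 for CLDN7, 0.10 for CLDN15, 0.32 for CLDN23, 0.31 for TJP1, 0.23 for PALS1, 0.20 for PARD3, 0.20 for PARD6B, 0.22 for CTNNA1, 0.025 for CTNND1, 0.15 for NECTIN2, 0.17 for NECTIN3, 0.26 for DSG2, 0.20 for DSC2, 0.32 for DSP, 0.27 for JUP, 0.30 for ELF3 and 0.29 for CTNNB1.

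The probe set chosen decided some members. With the second brightest probe set 10 members were higher and 2 lower, where 9.87% and 9.52% of all genes were. In that setting PATJ (-0.23), CTNND1 (0.26) and PLEKHA7 (-0.064) changed sign. When probe sets were averaged per gene, CTNND1 (0.0016), AFDN (-0.019) and CTNNB1 (0.12) did. The cause of these differences between probe sets was not tested. Members near background in both groups numbered 6, where a change could be missed.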
